A study of Arabidopsis thaliana with 16 samples.

Results

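A set of 4 Arabidopsis thaliana genes, AT3G47295, AT1G49310, AT1G54410 and AT5G60400, had less transcript after gibberellin A3 (GA3) in seedlings of a transgenic line that had been kept short of gibberellin. They were chosen by these very values. In the line without dexamethasone (DEX), 9 probe sets were called lower with GA3 by limma at an adjusted p under 0.05, and these 4 were all of those that the platform's annotation pairs with 1 gene. The other 5 called lower carry no single gene there and are not named. Each of the 4 genes has 1 probe set, and all 4 passed the filter on low values, out of 9454 probe sets tested and 22746 on the array besides controls. They are 4 of the 4916 named genes tested.

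Gibberellins promote growth by triggering the degradation of DELLA proteins, nuclear regulators that restrain growth and that change transcription through their partners. Paclobutrazol (PAC) blocks gibberellin synthesis, so DELLA proteins accumulate, and GA3 given with PAC brings them down again. AT1G54410, also called HIRD11, encodes a dehydrin, a member of the late embryogenesis abundant (LEA) proteins. Dehydrins are very hydrophilic, largely unfolded proteins that accumulate in plant cells during drying and cold, and HIRD11 is a short, histidine-rich one that binds metals. The reference annotation gives AT3G47295, AT1G49310 and AT5G60400 no more than a locus name, so no role is stated for them. The genes lie on chromosome 3, chromosome 1 (AT1G49310 and AT1G54410) and chromosome 5.

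Whole seedlings were profiled on 16 Affymetrix ATH1 arrays, 2 biological replicates by their labels in each of 8 groups. The line 35S::ARR1ΔDDK-GR, in the Columbia-0 background, makes the type-B response regulator ARR1 without its regulatory domain from the broadly active 35S promoter, fused to a glucocorticoid receptor part that holds it out of the nucleus until DEX is given. All 4 of its groups received 10 μM PAC for 18 h: with 50 μM GA3 and 5 μM DEX (ARR1_PAC_GA_DEX), with DEX (ARR1_PAC_DEX), with GA3 (ARR1_PAC_GA) and with neither (ARR1_PAC), DEX being given for 3 h. The wild type Columbia-0 received PAC, GA3 and 5 μM of the cytokinin N6-benzyladenine (BA) for 3 h (Col_PAC_GA_BA), PAC and BA (Col_PAC_BA), DEX alone (Col_DEX) or nothing (Col_mock). GA3 was therefore given with PAC in 3 settings: the line without DEX, the line with DEX, and wild type with BA. Neither the line without PAC nor wild type with PAC alone was analysed here. Seedlings were 5 days old when they were moved to liquid medium, and all samples are listed as 6 days old. Nothing in the labels says whether replicates were grown apart, so the p-values measure the spread between these samples only.

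The log2 values of the tested and untested probe sets together gave replicate correlations of 0.987 to 0.993. No probe set tested is named ARR1, so the transgene was not checked by its transcript. Marker lists said little about the tissue, since 0 of 8 mesophyll, 1 of 6 root and 1 of 12 seed maturation genes had a named probe set. The root hair gene EXPA7 was at 2.36 to 2.82 on the log2 scale over the 16 arrays, near the floor of 2.36, and the oleosin gene AT3G01570 was at 2.36 to 2.38. The chloroplast transcripts rbcL and psbA, looked up after the values were seen, were at 6.50 to 8.30 and 7.26 to 9.59. Fewer cells that make a transcript and less transcript per cell cannot be told apart in whole seedlings.

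AT3G47295 had the largest difference in the contrast that chose the genes. Its log2 expression was 6.52 and 6.37 in ARR1_PAC_GA, against 7.74 and 7.72 in ARR1_PAC, a log2 fold change of −1.29 or 59.0% less transcript. AT1G49310 was at 4.11 and 3.82 in ARR1_PAC_GA, against 5.03 and 4.89 in ARR1_PAC, a log2 fold change of −0.99. These are dim values on an array set whose floor is 2.36. Outside ARR1_PAC, the group means of AT1G49310 were at most 4.16. The dehydrin gene AT1G54410 was by contrast a bright signal, at 11.60 and 11.37 in ARR1_PAC_GA and 12.51 and 12.45 in ARR1_PAC, with a log2 fold change of −0.99. AT5G60400 was at 4.98 and 4.88 in ARR1_PAC_GA and at 5.93 and 5.90 in ARR1_PAC, which also gave −0.99. In all 4 genes both GA3 arrays lay below both arrays without GA3, a pattern that the choice of genes favours. Of all tested probe sets, 16.6% were lower without overlap in this contrast and 0.0952% were called lower.

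The choice favoured probe sets with a small spread as well as a large difference. The standard error (SE) of a 2-group log2 difference was 0.13 for AT3G47295, 0.16 for AT1G49310, 0.17 for AT1G54410 and 0.14 for AT5G60400, against a median of 0.20 over all probe sets tested. The SE of AT3G47295 was at the 0.487th percentile. Among named genes, the member nearest the threshold was AT1G54410, at −0.99 ± 0.17 (SE), and the next outside it was AT1G25275, at −0.86 ± 0.15. Larger differences that were not called include that of DFR, a gene of anthocyanin synthesis, at −2.21 ± 0.81. The fit shares 1 estimate of the spread per probe set over the 16 arrays, so the same small spreads enter every test below.

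**Figure D1:**
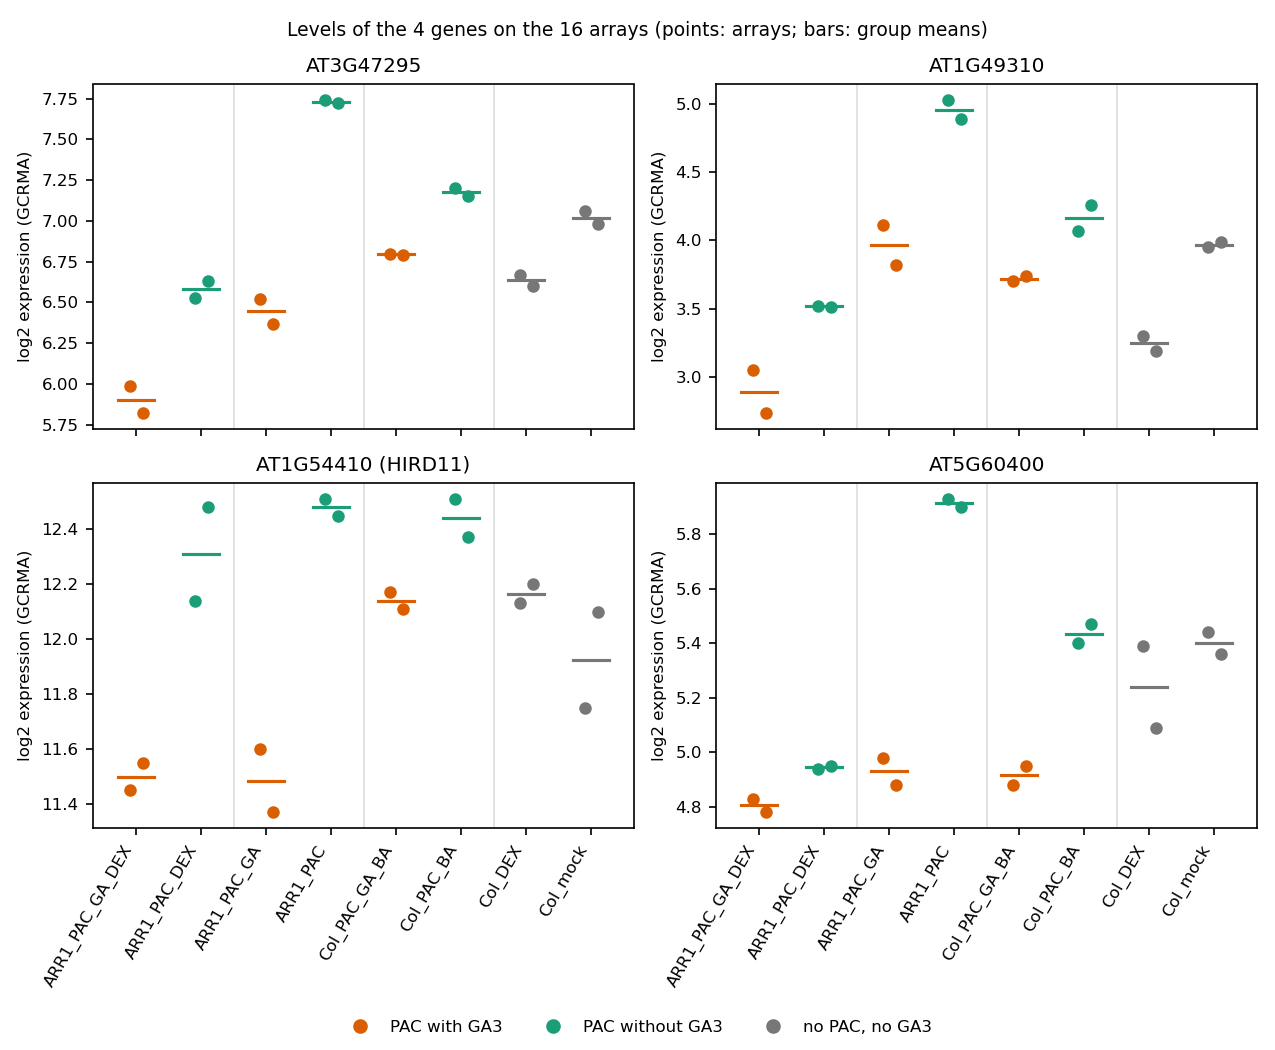
Log2 expression (GCRMA, y axes) of each gene on every array, by group; points are arrays, bars are the means of 2 arrays, and the y axes differ between genes and do not start at 0. In all 4 genes ARR1_PAC has the highest group mean, which the choice of genes favours. Each PAC with GA3 group lies below the PAC group to its right without overlap.

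Across the 8 groups, the 4 genes shared their high end but not the rest of their order. ARR1_PAC had the highest mean for all 4, at 7.73 for AT3G47295, 4.96 for AT1G49310, 12.48 for AT1G54410 and 5.92 for AT5G60400. The choice of genes favours a high mean in that group. Wild type with PAC and BA came next for all 4, and only for AT1G54410 did its arrays overlap those of ARR1_PAC. ARR1_PAC_GA_DEX was lowest for AT3G47295 (mean 5.90), AT1G49310 (2.89) and AT5G60400 (4.80). For AT1G54410 the lowest mean was 11.49 in ARR1_PAC_GA, whose arrays overlapped those of ARR1_PAC_GA_DEX at 11.50.

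The middle of the order held several neighbours that could not be separated by their arrays. For AT3G47295 they were Col_DEX and ARR1_PAC_DEX, and for AT1G49310 Col_mock and ARR1_PAC_GA. For AT5G60400, ARR1_PAC_DEX, ARR1_PAC_GA and Col_PAC_GA_BA followed each other with means of 4.95, 4.93 and 4.92 and overlapping arrays, as did Col_PAC_BA, Col_mock and Col_DEX at 5.44, 5.40 and 5.24. For AT1G54410 the 5 highest groups, from ARR1_PAC to Col_PAC_GA_BA, overlapped each with the next. From its lowest to its highest array, AT1G49310 covered 2.30 log2 units, AT3G47295 1.92, AT5G60400 1.15 and AT1G54410 1.13.

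Whether the lower level with GA3 held in seedlings outside the contrast that chose the genes was asked first in the line with DEX. AT3G47295 was at 5.99 and 5.82 in ARR1_PAC_GA_DEX, against 6.53 and 6.63 in ARR1_PAC_DEX. AT1G49310 was at 3.05 and 2.73 with GA3, against 3.52 and 3.51 without it. Those values were dim, all under the log2 of 4 used as the filter. AT1G54410 was at 11.45 and 11.55 with GA3, against 12.14 and 12.48 without it. AT5G60400 was at 4.83 and 4.78 with GA3, against 4.94 and 4.95 without it. The GA3 arrays were the lower ones without overlap in 4 of 4 genes, where 11.9% of all tested probe sets did the same. The small spreads that the choice favoured also make a lack of overlap more likely, so that share is not a like background.

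The sizes of these differences were unequal. The log2 fold changes in the line with DEX were −0.81 ± 0.17 (SE, n = 2 arrays per group) for AT1G54410, −0.68 ± 0.13 for AT3G47295, −0.63 ± 0.16 for AT1G49310 and −0.15 ± 0.14 for AT5G60400. None passed the test across all probe sets. The limma adjusted p was 0.128 for AT3G47295, 0.152 for AT1G54410, 0.241 for AT1G49310 and 0.777 for AT5G60400, while the unadjusted p was 0.000204, 0.000328, 0.00168 and 0.309 in the same order. No probe set at all was called in this comparison by limma (0 of 9454, 0% lower), 927 had an unadjusted p under 0.05, and the Z test described with the processing called 419, among them the genes other than AT5G60400. Without the filter on low values AT3G47295 was called, with an adjusted p of 0.00452, among 69 of the 22746 probe sets then tested. Of its 24 alternatives, 22 gave it no call.

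In wild type with BA the 4 genes were again lower with GA3 on every array. AT3G47295 was at 6.80 and 6.79 in Col_PAC_GA_BA, against 7.20 and 7.15 in Col_PAC_BA. AT1G49310 was at 3.70 and 3.74 with GA3 and at 4.07 and 4.26 without it. AT5G60400 was at 4.88 and 4.95 with GA3 and at 5.40 and 5.47 without it. The dehydrin gene AT1G54410 was at 12.17 and 12.11 with GA3 and at 12.51 and 12.37 without it. The background was higher here, since 18.9% of tested probe sets were lower with GA3 without overlap. Only 2.92% were so both in the line with DEX and in wild type with BA, as all 4 genes were. The small spreads that the choice favoured bear on both shares.

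The log2 fold changes in wild type with BA were −0.52 ± 0.14 (SE, n = 2 arrays per group) for AT5G60400, −0.45 ± 0.16 for AT1G49310, −0.39 ± 0.13 for AT3G47295 and −0.30 ± 0.17 for AT1G54410. The order of sizes was thus not that of the line with DEX. No gene of the 4 passed the test, with limma adjusted p-values of 0.392 to 0.514, where 0.0212% of tested probe sets were called lower (2 of 9454). That background was unsteady: the 3 calls in both directions became 0 to 173 with 1 array left out, 51 without a filter and 481 by the Z test. The 95% interval for AT1G54410, −0.66 to 0.06, reached past 0.

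**Figure D2:**
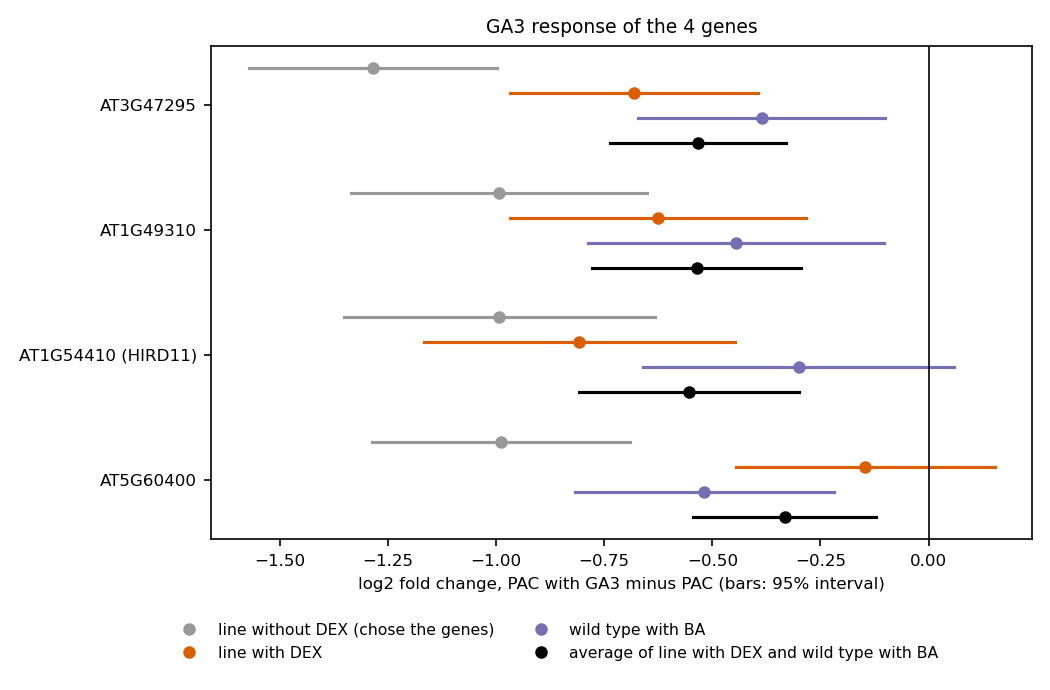
Log2 fold change of PAC with GA3 minus PAC (x axis; points, with 95% intervals as bars) for each gene in the line without DEX, the line with DEX, wild type with BA, and the average of the last pair. The line without DEX, which chose the genes, gives −1.29 to −0.99, and all other points lie to its right, between −0.81 and −0.15. That choice favours low values in the line without DEX.

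The average over the line with DEX and wild type with BA used 8 arrays outside the contrast that chose the genes. Their spread still entered the shared estimate by which the genes were called there, so the arrays are not independent of the choice. The average was −0.53 ± 0.09 (SE) for AT3G47295, with a limma adjusted p of 0.0421, so that this gene fell by 30.9% on average. This was the only limma call among the 4, where 0.127% of tested probe sets were called lower. The Z test called AT1G49310 and AT1G54410 as well, among 433 probe sets. With 1 array left out the log2 fold change stayed between −0.57 and −0.49, but the call was lost in 15 of the 16 fits that left out 1 array, all but the one without Col_PAC_BA replicate 1, and in the fit of only these 4 groups, where the adjusted p was 0.246.

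The other averages were of like size and did not pass the test. AT1G54410 had −0.55 ± 0.12 (limma adjusted p = 0.0949), AT1G49310 had −0.54 ± 0.11 (0.0883) and AT5G60400 had −0.33 ± 0.10 (0.230). None of the 95% intervals reached 0, and that of AT1G54410 was −0.81 to −0.30. Of 23 alternatives, 21 left AT1G49310 without a call, the exceptions being the Z test and the fit without Col_PAC_BA replicate 1. The median over all tested probe sets was 0.06, so the 4 genes lay below the bulk of the array as well as below 0.

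The test of the difference between the responses, that of the line with DEX minus that of wild type with BA, was also not passed by any of the 4 genes in limma. AT1G54410 had the largest difference, −0.51 ± 0.23 (SE), with a 95% interval of −1.01 to 0.00053, an unadjusted p of 0.0502 and a limma adjusted p of 0.555. AT5G60400 differed in the opposite direction, by 0.37 ± 0.20 (0.578). AT3G47295 differed by −0.29 ± 0.19 and AT1G49310 by −0.18 ± 0.22. These intervals are wide, and 0% of tested probe sets were called by limma in this comparison, where 853 had an unadjusted p under 0.05. The Z test called 483, AT1G54410 among them.

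DEX, which sends ARR1ΔDDK-GR to the nucleus in the line, was set against no DEX in PAC and in PAC with GA3. In PAC without GA3, DEX seedlings had log2 fold changes of −1.45 for AT1G49310, −1.15 for AT3G47295 and −0.97 for AT5G60400, but of −0.17 for AT1G54410. In PAC with GA3 they were −1.08 for AT1G49310, −0.54 for AT3G47295, −0.13 for AT5G60400 and 0.01 for AT1G54410, the last being −0.06 after quantile normalization and −0.0056 after 75th percentile centring. Each of these contrasts shares 2 arrays with the one that chose the genes, so they are given without a test, and the genes were not tested against each other. That choice favours high values in ARR1_PAC and low ones in ARR1_PAC_GA, and so a larger fall with DEX in PAC than in PAC with GA3. AT1G54410 overlapped between DEX and no DEX in both media, at 12.14 and 12.48 against 12.51 and 12.45 in PAC, and at 11.45 and 11.55 against 11.60 and 11.37 in PAC with GA3.

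The average of both DEX contrasts, a summary chosen after the data were seen, also holds the arrays that chose the genes and is likewise a description. It was −1.26 ± 0.11 (SE) for AT1G49310, or 58.3% less transcript, −0.84 ± 0.09 for AT3G47295, −0.55 ± 0.10 for AT5G60400 and −0.08 ± 0.12 for AT1G54410. The DEX arrays of AT1G49310 were dim, at 2.73 to 3.52. The value of AT5G60400 averages a pair of unlike contrasts, and that of AT1G54410 was 0.0066 without ARR1_PAC_DEX replicate 1. DEX moved a large part of the transcriptome of the line, and limma called 15.5% of tested probe sets lower in this average (1464 of 9454).

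Wild type seedlings without PAC were the control for DEX itself. AT1G49310 was at 3.30 and 3.19 in Col_DEX, against 3.95 and 3.99 in Col_mock. Its log2 fold change was −0.73 ± 0.16 (SE, n = 2 arrays per group) with a limma adjusted p of 0.0629. The Z test, which takes no account of the spread between replicates, called it among 392 probe sets. AT3G47295 was at 6.67 and 6.60 in Col_DEX and at 7.06 and 6.98 in Col_mock. This gave −0.39 ± 0.13 (limma adjusted p = 0.429). Both genes were lower with DEX without overlap, as were 21.8% of tested probe sets, and limma called 0.0846% lower. AT5G60400, at 5.39 and 5.09 in Col_DEX and 5.44 and 5.36 in Col_mock, overlapped. AT1G54410 was at 12.13 and 12.20 in Col_DEX and at 11.75 and 12.10 in Col_mock, a difference of 0.24 ± 0.17 (0.989).

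The averaged DEX response of the line net of that of wild type was calculated after the data were seen and holds the same arrays, so it too is without a test. It was −0.53 ± 0.19 (SE) for AT1G49310, −0.46 ± 0.16 for AT3G47295, −0.39 ± 0.17 for AT5G60400 and −0.32 ± 0.20 for AT1G54410, so that the dehydrin gene was close to AT5G60400 here. Of all tested probe sets 3.42% were called lower. The line had PAC and wild type did not, so genotype and PAC cannot be told apart in it.

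**Figure D3:**
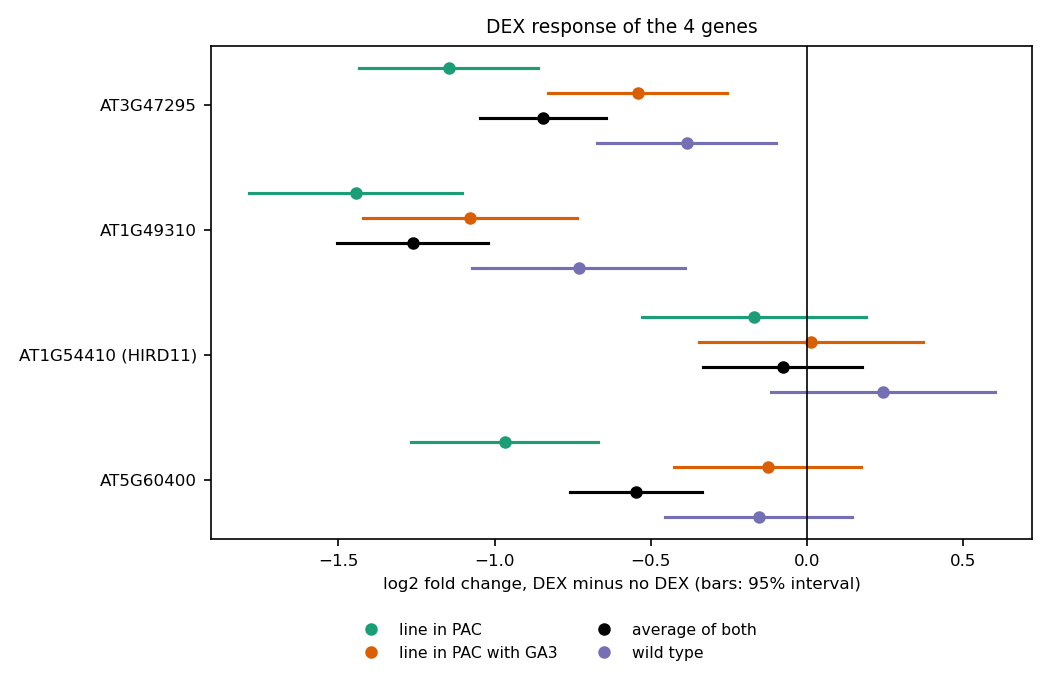
Log2 fold change of DEX minus no DEX (x axis; points, with 95% intervals as bars) for each gene in the line in PAC, in the line in PAC with GA3, in the average of both, and in wild type without PAC. The average lies at −1.26 for AT1G49310, −0.84 for AT3G47295 and −0.55 for AT5G60400, and at −0.08 for AT1G54410.

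Treated wild type seedlings were also set against untreated ones. With PAC and BA the dehydrin gene AT1G54410 was at 12.51 and 12.37, against 11.75 and 12.10 in Col_mock, a log2 fold change of 0.51 ± 0.17 (SE, n = 2 arrays per group) with a limma adjusted p of 0.0727. Of 24 alternatives, only the trend and robust settings of the variance fit called it, at an adjusted p of 0.0496. Over all tested probe sets, 3.61% were called higher and 5.14% lower. AT1G49310, AT3G47295 and AT5G60400 differed by 0.19, 0.16 and 0.04, with adjusted p-values of 0.474, 0.480 and 0.890. With PAC, GA3 and BA the log2 fold changes were −0.48 ± 0.14 for AT5G60400 (adjusted p = 0.0563), −0.25 ± 0.16 for AT1G49310, −0.23 ± 0.13 for AT3G47295 and 0.21 ± 0.17 for AT1G54410, and 3.51% of tested probe sets were called lower. Of 23 alternatives, only leaving out the filter on low values called AT5G60400, at a limma adjusted p of 0.0282. Both comparisons share the Col_mock arrays, and PAC and BA cannot be told apart in them.

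Among the 4 genes, profiles over the 16 arrays were most alike for AT3G47295 with AT5G60400 (Pearson r = 0.905) and with AT1G49310 (0.904), and least for AT1G54410 with AT1G49310 (0.491). Over the 12 arrays outside the choosing contrast, the highest r was 0.94, for AT3G47295 with AT1G49310, and the lowest was 0.405, for AT1G54410 with AT5G60400. These correlations describe arrays that share their treatments and are given without a test.

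The named genes whose profile was most like the mean of the 4 were AT4G14020 (r = 0.923 over 16 arrays), AT1G25275 (0.910), RALFL32 (0.907), AT1G62045 (0.895) and SPPA (0.875). They were picked for their likeness over all arrays, so their responses restate that choice and are given without a test. RALFL32 encodes a peptide of the rapid alkalinization factor family, and SPPA a protease of the thylakoid membrane. RALFL32 and AT4G14020 are next to each other on chromosome 4, with 0 annotated genes between them. In the average of the line with DEX and wild type with BA, the log2 fold change with GA3 was −0.78 ± 0.17 (SE) for AT4G14020, −0.57 ± 0.10 for AT1G25275, −0.48 ± 0.14 for AT1G62045, −0.37 ± 0.12 for RALFL32 and −0.14 ± 0.11 for SPPA. With DEX averaged over the line it was −1.02 for AT4G14020, −0.97 for AT1G25275, −0.53 for both RALFL32 and AT1G62045, and −0.20 for SPPA.

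**Figure D4:**
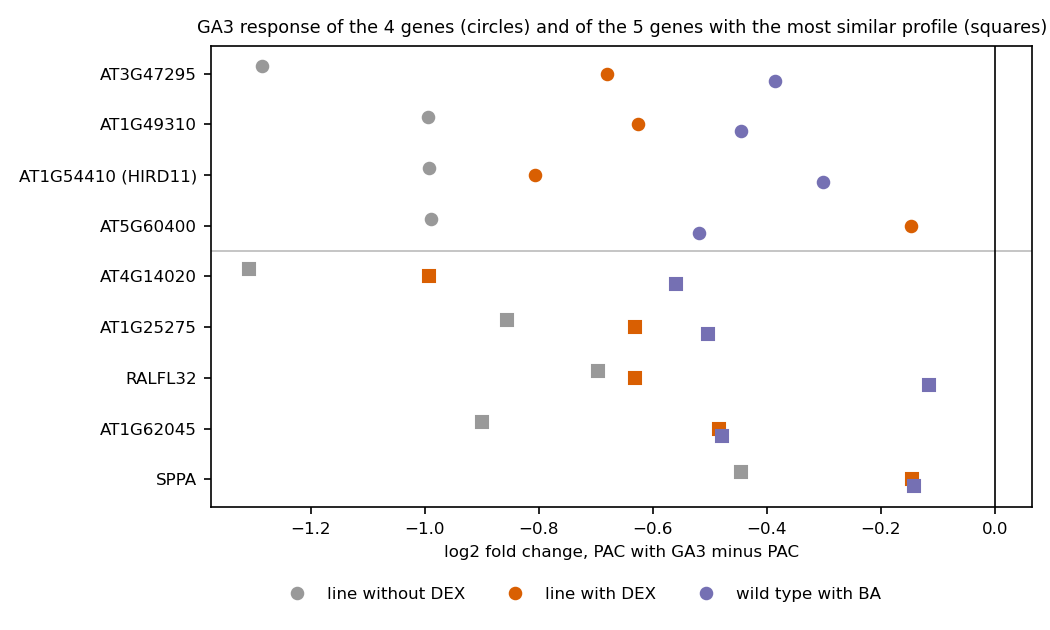
Log2 fold change of PAC with GA3 minus PAC (x axis) in the line without DEX, the line with DEX and wild type with BA, for the 4 genes (circles) and for the 5 named genes whose log2 values over the 16 arrays correlated best with the mean of the 4 (squares). All points lie below 0, and for every gene the line without DEX gives the lowest value. The 4 genes were chosen by that contrast and the 5 by a likeness that includes its arrays, which favours this order.

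Taken singly, the genes had different nearest profiles. RALFL32 (r = 0.927) and AT1G25275 (0.917) were nearest to AT3G47295, and AT4G34600 (0.933) and AT1G01490 (0.897) to AT1G49310. Nearest to AT5G60400 were NET1D (0.851), which encodes an actin-binding protein of the NETWORKED family, and AT2G29320 (0.836). AT5G21060 (0.853) and PDF2.5 (0.829), a plant defensin gene, were nearest to the dehydrin gene AT1G54410. The values of PDF2.5, picked by that r and so not tested, were with GA3 −0.70 ± 0.20 (SE) in the line with DEX and −0.55 ± 0.20 in wild type with BA (average −0.63), and with DEX 0.06 ± 0.14 over the line.

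The other dehydrins were looked at to see whether AT1G54410 stood with its family. Named probe sets were found for 6 of 10 dehydrin genes, and 3 of these were bright enough to test, AT1G54410 among them. In the average GA3 comparison LTI30 had −0.29 ± 0.24 (SE, limma adjusted p = 0.694) and COR47 had −0.22 ± 0.19 (0.696). Of the 3 dehydrin genes 0 passed the test, where 26 of all 9454 tested probe sets did, so 0 calls in so short a list says little. LTI30 and COR47 are dehydrins known for their induction in the cold. Their median was −0.25, beside 0.06 over all tested probe sets, and was unevenly made up. In the line with DEX it was −0.06, where AT1G54410 had −0.81, and in wild type with BA it was −0.45, where AT1G54410 had −0.30. In the line without DEX, the contrast that chose AT1G54410 at −0.99, it was 0.23.

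Named probe sets were found for 16 of 26 other LEA and cold-responsive genes. The 6 tested included 4 with a value below 0, and 0 were called in the average GA3 comparison (median −0.10). Over all tested probe sets 26 of 9454 were called there, and the median was 0.06. The members with the smallest p were DI21 at −0.16 ± 0.15 (SE), COR15B at −0.40 ± 0.41, AT2G44060 at 0.16 ± 0.17 and AT2G46140 at 0.10 ± 0.16. COR15B encodes a chloroplast protein that protects membranes during freezing. Its SE was 0.41, well above that of AT1G54410.

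Genes of gibberellin synthesis, breakdown and signalling were scarce among the tested probe sets. The list has 33, of which 6 had a named probe set, only 2 of them bright enough to test. In the average GA3 comparison 0 of these were called, beside 26 of all 9454 tested probe sets. XERICO, a RING-type gene, had −0.20 ± 0.17 (SE) and SLY1, the F-box gene that directs DELLA proteins to degradation, had −0.16 ± 0.19 in the average GA3 comparison. The probe sets of the gibberellin receptor genes GID1A, GID1B and GID1C were too dim to be tested.

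Genes that gibberellin is known to regulate during growth had values above 0 in the average GA3 comparison, with 1 exception. Of 18 in the list 8 had a named probe set, and the 5 tested had a median of 0.30 with 0 called. Over all tested probe sets the median was 0.06, with 26 of 9454 called. XTH16, XTH19 and XTH20, which encode enzymes that cut and rejoin the xyloglucan of cell walls, had 0.44 ± 0.16 (SE), 0.30 ± 0.11 and 0.33 ± 0.14, with limma adjusted p-values of 0.342 to 0.396. AT2G14900, of the GASA family of gibberellin-regulated genes, had −0.55 ± 0.13 (adjusted p = 0.123), a value like that of AT1G54410.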

How the data were processed

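The authors deposited 1 table of log2 values, 1 per probe set and ATH1 array, made with GCRMA (background correction, quantile normalization, summary of the probes of a set), whose version is not given in the sources used here. GCRMA pulls dim probe sets towards a common floor, so differences of dim genes may be understated. No column belonged to another series (0). Gene names came from the platform annotation, matched to TAIR10.1 loci; that assembly was used for names and neighbours only. No sequence or coordinate is given.

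Testing was limited to the 9454 probe sets that reached a log2 of 4 on 2 or more arrays. A model of 8 group means, without covariates, was fitted to the 16 arrays in R 4.3.3 by the lmFit, contrasts.fit and eBayes functions of limma 3.58.1 (8 residual and 4.66 prior degrees of freedom). Tests were two-sided, adjusted by Benjamini and Hochberg over all 9454, and called under 0.05. The median 95% half-width of a 2-group difference was 0.44, and the number of arrays limits this precision. The model was also run on simulated data with independent noise on each array. In the real data same-numbered arrays shared deviations in many pairs of groups, so no conclusion is drawn from that run. The Z test, 1 reading of the study's methods, standardises group means and divides each difference by its spread over probe sets (threshold 1.96). It takes no account of the spread between replicates, and its scaling leads to calls in every comparison.

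The 4 genes, the lists and the comparisons were chosen with earlier results of these data known. Named were the 4 genes, the 5 genes nearest to their mean profile and the 2 nearest to each, and up to 4 tested genes per list with the smallest p in the average GA3 comparison; DFR, XTH18, rbcL and psbA were picked after their values were seen. The alternatives left out the filter or raised it to 6, or used quantile normalization, 75th percentile centring, trend and robust variance, a replicate block, only the groups compared or the Z test, or left out each array in turn. Figures were drawn with matplotlib 3.10.9.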

Additional observations from a re-analysis of the deposited data

How the results depend on the processing

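Over its alternatives, AT3G47295's average GA3 response stayed between −0.61 and −0.49 with adjusted p-values of 0.00396 to 0.246, and the cause of the lost calls was not tested beyond the arrays left out. Without a filter 69, 51, 83 and 43 probe sets were called for GA3 in the line with DEX, in wild type with BA, in their average and in their difference, and 404 for PAC, GA3 and BA; AT3G47295 was called in the first (−0.68). With a floor of 6 the counts were 0 (wild type with BA), 15 (average), 41 (DEX in wild type), 532 (PAC and BA), 400 (PAC, GA3 and BA), 1533 (DEX averaged) and 511 (net of wild type), fewer probe sets being tested, AT1G49310 and AT5G60400 not among them. With only the groups compared they were 0, 0, 38 and 98 (wild type with BA, average, DEX in wild type, PAC and BA), and AT3G47295's average of −0.53 lost its call. The Z test called 419, 481, 433, 483, 392, 469 and 564 (GA3 in the line with DEX, in wild type with BA, average, difference, DEX in wild type, PAC and BA, DEX averaged). Its calls that limma did not make, as Z values, were AT3G47295 (−2.72), AT1G49310 (−2.34) and AT1G54410 (−3.53) in the line with DEX, AT1G49310 (−2.60) and AT1G54410 (−2.54) in the average, AT1G54410 in the difference (−2.03) and AT1G49310 for DEX in wild type (−2.32). In the average both tests called AT3G47295. Leaving out 1 array, with the lone array of its group assumed to vary like the other groups, gave counts of 0 to 2, 0 to 173, 1 to 111, 29 to 75, 159 to 959, 127 to 750, 2337 to 3156 and 178 to 911 (GA3 in the line with DEX, wild type with BA, average, DEX in wild type, PAC and BA, PAC, GA3 and BA, DEX averaged, net of wild type), and averages of −0.57 to −0.49 for AT3G47295 and −0.62 to −0.46 for AT1G49310. For AT1G54410 it gave −0.10 to 0.13 for DEX in PAC with GA3, which was −0.055 after quantile normalization and −0.0056 after 75th percentile centring, and −0.16 to 0.0066 for DEX averaged. Replicate numbers were only shared by label: the deviations of same-numbered arrays correlated at −0.331 to 0.48 over 28 pairs of groups, above 0.1 in 21. A replicate block gave 1 call for GA3 in the line with DEX and 44 for the average, and changed no call of the 4 genes.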

Other observations

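In the average of the DEX contrasts of the line, chosen after the data were seen, limma called 1598 of 9454 tested probe sets higher and 1464 lower (15.5%), and calls within the lists have to be read against these. Of the 5 tested gibberellin-responsive growth genes, XTH20 rose by 0.57 (SE 0.14, limma adjusted p = 0.00719) and XTH16 fell by 0.80 (adjusted p = 0.0022). XTH18 fell by 0.57 (0.014) and AT2G14900 fell by 0.63 (0.00235). XTH20 had 0.93 ± 0.20 in wild type with DEX, with an adjusted p of 0.0579. Of the 6 tested LEA and cold-responsive genes other than dehydrins, 1 was called, a share near the background: COR15B fell by 1.33 (SE 0.41, adjusted p = 0.0239). In wild type COR15B had 1.27 ± 0.57 with DEX (0.706). Neither LTI30 (0.32 ± 0.24, adjusted p = 0.347) nor COR47 (−0.17 ± 0.19, 0.529) was called, nor was any tested gene of gibberellin synthesis, breakdown and signalling.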
